A study of Mus musculus with 7 samples.

Results

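Oligodendrocytes are the myelin-forming cells of the brain, and 39 genes of their lineage and of myelin were named for the comparison of cocaine-activated with shock-activated medial prefrontal cortex (mPFC). The members were matched exactly to the gene symbol of probe sets that carry a single symbol, and where a gene had several such probe sets the brightest by its mean was kept. This gave 38 of the 39 members, among 22180 genes measured in the same way. The remaining member, Trf (transferrin, an iron carrier), has a probe set that also carries the symbol of another gene, so it was not used here. All but 1 of the 38 lay above the dim level of 5.46, which is the 95th percentile of the mean log2 values of 1390 olfactory and vomeronasal receptor genes, a stand-in for background. The member under that level was Nkx2-2.

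The 7 arrays fall into 4 of cocaine-activated mPFC (numbered 4, 5, 6 and 7) and 3 of shock-activated mPFC (numbered 4, 5 and 6). Both groups came from mice that carried a ribosome tag for translating ribosome affinity purification (TRAP) together with an ArcCre transgene, in which the activity-regulated gene Arc drives Cre. Tamoxifen was present while the mice received cocaine at 15 mg/kg for 2 days, or 20 shocks of 2 s at 0.5 mA for 2 days. Cells active in that window then carried ribosomes tagged with green fluorescent protein, which were precipitated with an anti-GFP antibody together with their RNA. No source used here gives the age or number of the mice or says whether they were pooled, so each p-value reflects array-to-array spread that may be technical. Precipitates from mice without the tag and RNA taken before the precipitation were not analysed here, so RNA from tagged cells and RNA carried along from other cells cannot be told apart.

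Precursors, marked by the growth factor receptor PDGFRα and the proteoglycan NG2, divide and spread through the grey and white matter. Some leave the cell cycle, pass through a newly formed stage and then wrap axons with myelin, a stack of membrane rich in galactolipids and held together by proteins such as myelin basic protein. SOX and OLIG transcription factors define the lineage, and MYRF switches on the myelin genes. In cortex, new myelin can form in adult life, and neuronal activity is known to affect precursors and myelin.

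The members did not separate cocaine-activated from shock-activated mPFC. Of 38 members, 19 had a higher and 19 a lower mean in the cocaine group, where 50.9% of all genes had a higher one. Their median difference, cocaine minus shock on the log2 scale, was -0.0026, against 0.0016 over all 22180 genes. No member passed limma at an adjusted p under 0.05 (0 of 38, smallest adjusted p = 0.938), and the same test called 0.0% of all genes. At an unadjusted p under 0.05, limma gave 1 member, Olig2, where 3.1% of all genes reached that level, so the share of members was close to that of all genes.

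Differences were small beside the spread between arrays. The member differences ran from -0.16 (Olig2) to 0.15 (Mobp). In size, 5 of 38 were at least 0.1, as were 24.4% of all genes and 2240 of the 13733 genes above the dim level. In 34 of 38 members the difference was smaller than the within-group SD, as it was in 16681 of all 22180 genes. In 37 of 38 members the difference was smaller than the range over the 4 cocaine arrays alone, a count not taken over all genes. The 95% interval of the difference, taken gene by gene from limma, lay inside a 1.5-fold change in either direction (0.58 on the log2 scale) for each of the 38 members and inside 0.32 of 0 for 28 of them. Its reach to either side had a median of 0.18. In these precipitates, fewer cells of a type, less RNA per cell and less RNA carried along from other cells cannot be told apart.

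Cocaine array 6 stood apart from the other arrays. Its mean Euclidean distance to them over all genes was 37.2, against 27.5 to 29.6 for each of the others, and results that rest on it are given without it. Without it, 27 of 38 members were higher in the cocaine group, the median difference was 0.042, and 0 members reached an unadjusted p under 0.05 in limma.

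Sequence upstream of the gene start was taken from RefSeq (GRCm38.p6) for the 29 members with a window in the sequence table used here, as the 250 bases before the first listed start of each gene. The windows of 3 members are shown, since Olig2 was the member with the largest negative difference, and Mobp and Opalin are myelin genes with positive ones. Capitals mark matches on either strand to CAGCTG (an E-box of the kind OLIG2 binds), ACAAAG (a SOX core), CTGGNAC (a MYRF core) or GGGCGG (a GC box).
Olig2, chr16:91225300-91225549, plus strand: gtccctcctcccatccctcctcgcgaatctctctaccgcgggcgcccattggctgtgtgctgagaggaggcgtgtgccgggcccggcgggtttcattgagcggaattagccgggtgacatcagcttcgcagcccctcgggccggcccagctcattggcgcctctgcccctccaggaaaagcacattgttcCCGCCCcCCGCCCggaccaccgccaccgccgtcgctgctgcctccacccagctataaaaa
Mobp, chr9:120149492-120149741, plus strand: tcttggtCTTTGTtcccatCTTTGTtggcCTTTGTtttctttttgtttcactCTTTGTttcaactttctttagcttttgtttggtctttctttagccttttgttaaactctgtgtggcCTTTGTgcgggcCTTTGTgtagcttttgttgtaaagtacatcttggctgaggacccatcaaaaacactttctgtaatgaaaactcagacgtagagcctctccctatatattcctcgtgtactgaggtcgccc
Opalin, chr19:41077114-41077363, minus strand: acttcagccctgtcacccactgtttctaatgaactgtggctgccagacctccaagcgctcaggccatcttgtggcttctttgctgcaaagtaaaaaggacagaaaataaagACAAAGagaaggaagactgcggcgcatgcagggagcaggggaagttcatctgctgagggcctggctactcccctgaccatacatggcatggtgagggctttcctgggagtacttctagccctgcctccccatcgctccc

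The Mobp window held 6 matches to the SOX core, the Opalin window held 1, and the Olig2 window held 2 GC boxes and no match to the other motifs. Over the 29 members, 5 (17.2%) held ACAAAG, against 16.5% of 27025 genes. CAGCTG was in 3 of 29 (10.3%), against 12.8% of all genes. CTGGNAC was in 9 of 29 (31.0%), against 16.0%, and its members included Mag, Mog and Cnp. GGGCGG was in 13 of 29 (44.8%), against 32.9%, and the member windows had a median GC content of 59.6%, against 52.0% in all genes. A match is a description of these letters, not a binding site.

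Among the precursor genes, Pdgfra, the receptor of a growth factor that drives precursor division, had 6.51, 6.84, 6.58 and 6.90 on cocaine arrays 4, 5, 6 and 7, against 6.77, 6.77 and 6.70 on shock arrays 4, 5 and 6 (all values are log2, in this array order throughout). The shock values sat inside the cocaine range, with cocaine arrays 4 and 6 below them. The cocaine arrays averaged 6.71 ± 0.19 (SD, n = 4), against 6.75 ± 0.04 (SD, n = 3) for the shock arrays, a difference of -0.04 with a 95% interval of -0.28 to 0.21.

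Cspg4, the gene of the NG2 proteoglycan that pericytes also make, had 6.09, 6.12, 6.12 and 6.06 in the cocaine group, against 6.16, 6.03 and 6.32 in the shock group. The groups overlapped, and shock array 6 was the highest of the 7. The difference was -0.071 (interval -0.23 to 0.09). It was 0.0033 when shock array 6 was left out. Leaving out shock array 5 instead gave -0.14 with an unadjusted p = 0.0436 in limma. Shock array 6 also had the highest level of the mural cell list, which includes pericytes (score 0.58, against -0.44 to 0.12 on the other 6 arrays). A score averages, over the genes of a list, how far each gene lies from its own average across all arrays. The part of these cells in the Cspg4 value was not tested.

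Gpr17, a receptor carried briefly by precursors about to differentiate, had 7.20, 7.33, 6.85 and 7.29 on the cocaine arrays, against 7.21, 7.45 and 7.05 on the shock arrays. Cocaine array 6 was lowest and shock array 5 highest, with overlapping groups and a difference of -0.072 (interval -0.41 to 0.27). Bcas1, a gene of newly formed and early myelinating cells, had 6.36, 6.52, 6.09 and 6.43 in the cocaine group, against 6.56, 6.36 and 6.20 in the shock group, a difference of -0.023. Its other probe set read 4.53 on each of the 7 arrays, under the dim level. Nkx2-2, a transcription factor of precursors, differed by -0.025 and lay under the dim level.

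The 5 genes of precursors and newly formed cells (Pdgfra, Cspg4, Gpr17, Bcas1 and Nkx2-2) each had a lower cocaine mean, with a median of -0.04, and 0 of them reached an unadjusted p under 0.05 in limma. The direction rested on cocaine array 6, without which the median was 0.0032 with 3 of 5 higher, while without cocaine array 5 it was -0.081. The score of cocaine array 6 over these 5 genes was -0.16, the lowest of the 7 arrays, which otherwise ran from -0.055 to 0.078.

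**Figure D1:**
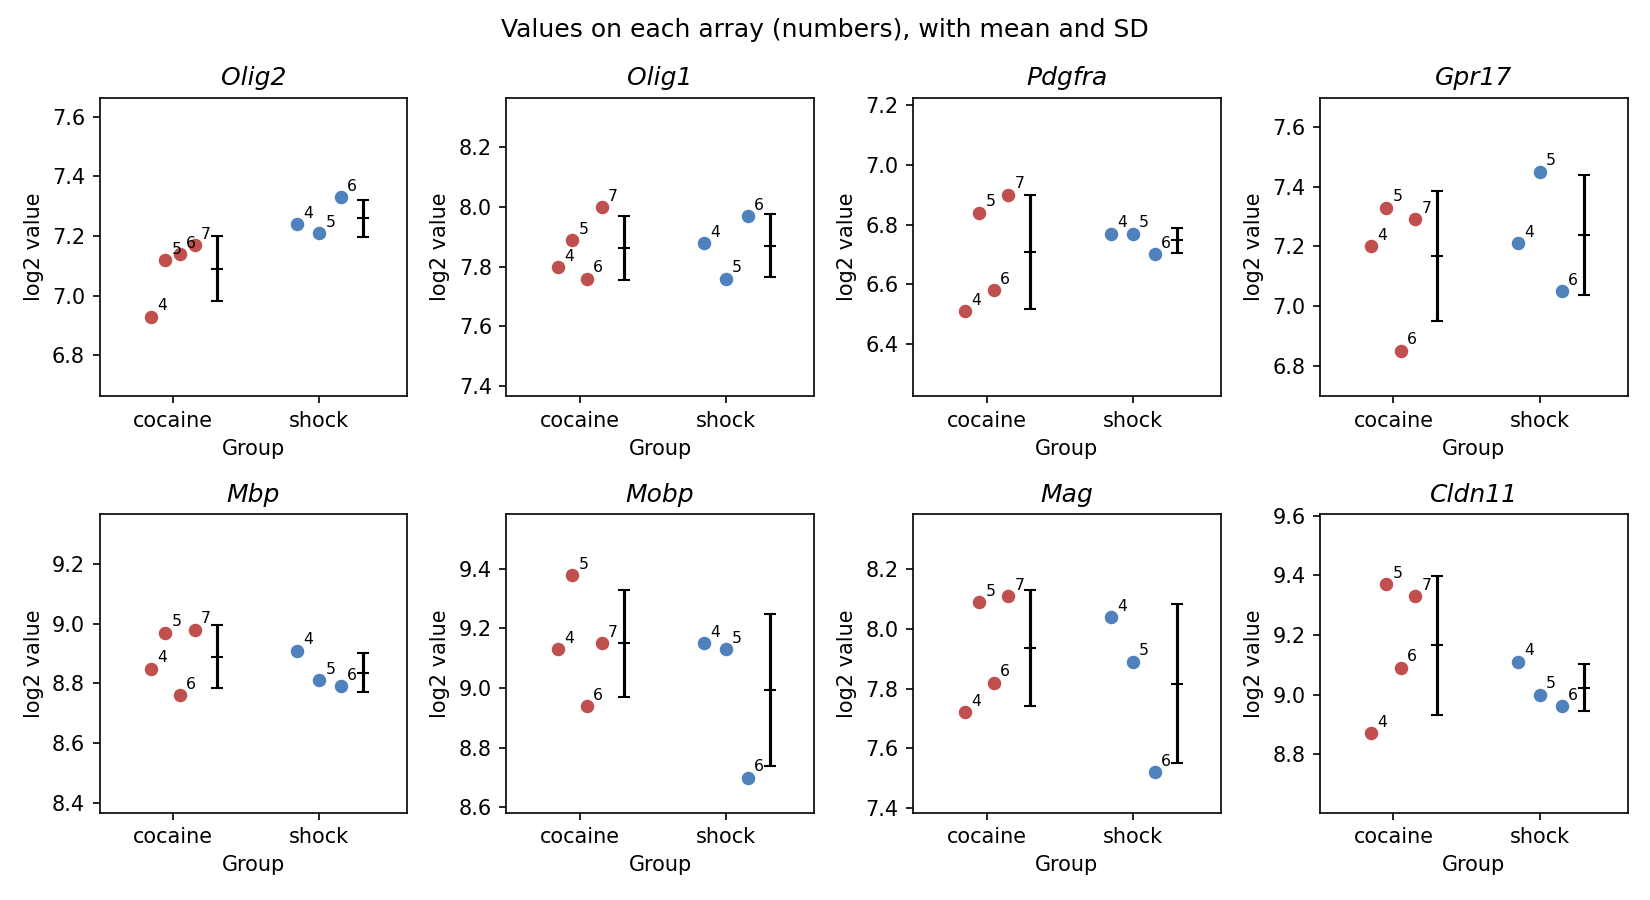
Log2 values (vertical axis) of 8 members on the 4 cocaine arrays (red, left) and the 3 shock arrays (blue, right), with the array number beside each point and the group mean with SD as a black bar. Each panel spans 1 log2 unit. Only in the Olig2 panel do the groups not overlap (cocaine up to 7.17, shock from 7.21).

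Olig2, a transcription factor needed for the lineage to form, was the member that came closest to separating the groups. It had 6.93, 7.12, 7.14 and 7.17 on the cocaine arrays, against 7.24, 7.21 and 7.33 on the shock arrays. Every cocaine value lay below every shock value, with a gap of 7.17 to 7.21 between the nearest ones. The cocaine arrays averaged 7.09 ± 0.11 (SD, n = 4), against 7.26 ± 0.06 (SD, n = 3) for the shock arrays, a difference of -0.16 (SE 0.067, interval -0.32 to -0.01). It did not pass the correction over all genes (limma, adjusted p = 0.938, unadjusted p = 0.0445). The groups did not overlap in 1 of 38 members, against 2.37% of all genes in either direction, 1.11% in the lower direction and 1.25% in the higher direction. The difference kept its sign in every fit run (-0.19 to -0.11), but its unadjusted p in limma was 0.0529 to 0.141 when cocaine array 5, cocaine array 6 or any 1 of the shock arrays was left out.

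Olig1, the close relative of Olig2 that lies beside it on chromosome 16 with 0 protein-coding genes between them, had no such order. Its values were 7.80, 7.89, 7.76 and 8.00 in the cocaine group, against 7.88, 7.76 and 7.97 in the shock group, and they overlapped fully. The difference was -0.0083 (interval -0.19 to 0.17). Whether the difference of Olig2 exceeds that of Olig1 was not tested.

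Sox10, the factor that keeps the lineage's identity, had 6.83, 6.92, 6.79 and 6.92 on the cocaine arrays, against 6.86, 6.96 and 6.85 on the shock arrays. The groups overlapped and the difference was -0.024 (interval -0.15 to 0.10). Its relative Sox8 ranged from 7.54 to 7.92 on the cocaine arrays and from 7.56 to 7.92 on the shock arrays, a difference of 0.017. Astrocytes and their progenitors are known to carry Olig2 too. The astrocyte list had a lower cocaine mean in 9 of 9 genes, with a median of -0.16 and 0 genes at an unadjusted p under 0.05 in limma. Its scores on the cocaine arrays were -0.21, 0.1, -0.0067 and -0.14, against -0.041, 0.16 and 0.14 on the shock arrays. Their part in the Olig2 value was not tested.

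The factors of the myelinating stage were level between the groups. Myrf, the switch for myelin genes, had 7.39, 7.62, 7.55 and 7.62 in the cocaine group, against 7.61, 7.38 and 7.48 in the shock group, a difference of 0.057 (interval -0.13 to 0.25) with overlapping values. Nkx6-2, a homeodomain factor of maturing oligodendrocytes, differed by -0.013, and its cocaine values spanned only 0.02.

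The 13 genes of myelin and oligodendrocyte membrane proteins leaned toward higher cocaine means, in 12 of 13, with a median of 0.069. None passed limma at an adjusted p under 0.05 (0 of 13, smallest adjusted p = 0.938), and 0 of 13 reached an unadjusted p under 0.05, where 1.53% of all genes did so in the higher direction. This lean depended on shock array 6. Without it, 7 of 13 were higher and the median was 0.0074, and without cocaine array 7 it was 8 of 13 and 0.027. Without cocaine array 6 the median was 0.11 in 13 of 13, and without shock array 4 it was 0.12.

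Mobp, whose product is an abundant protein of compact myelin, had the largest positive difference of the members. It had 9.13, 9.38, 8.94 and 9.15 on the cocaine arrays, against 9.15, 9.13 and 8.70 on the shock arrays. Shock array 6 was the lowest of the 7, while shock arrays 4 and 5 sat amid the cocaine values. The cocaine arrays averaged 9.15 ± 0.18 (SD, n = 4), against 8.99 ± 0.26 (SD, n = 3) for the shock arrays. The difference was 0.15 (interval -0.19 to 0.50), and 0.0074 without shock array 6.

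Mag, an adhesion protein of the membrane next to the axon, was also lowest on shock array 6. Its values were 7.72, 8.09, 7.82 and 8.11 in the cocaine group, against 8.04, 7.89 and 7.52 in the shock group. Cocaine arrays 5 and 7 were highest, and the groups overlapped. The difference of 0.12 (interval -0.24 to 0.48) turned to -0.027 without shock array 6.

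Opalin, a sialylated membrane protein of oligodendrocytes, had 7.12, 7.09, 6.81 and 7.26 on the cocaine arrays, against 7.22, 6.84 and 6.78 on the shock arrays. Here cocaine array 6 was almost as low as shock array 6. The difference was 0.13 (interval -0.21 to 0.46), and 0.043 without shock array 6.

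Cldn11, the claudin that seals the myelin sheath with tight junctions, had 8.87, 9.37, 9.09 and 9.33 in the cocaine group, against 9.11, 9.00 and 8.96 in the shock group. The shock values lay within the cocaine range, whose lowest value was on cocaine array 4. The difference was 0.14 (interval -0.16 to 0.45), and without cocaine array 4 it was 0.24 with an unadjusted p = 0.0407 in limma.

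Cnp, a phosphodiesterase bound to the inner tongue of the sheath, had 8.15, 8.56, 8.34 and 8.58 on the cocaine arrays, against 8.34, 8.40 and 8.18 on the shock arrays. The cocaine range covered the shock range, and the difference of 0.098 (interval -0.18 to 0.38) was 0.035 without shock array 6.

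Mbp, the protein that binds the inner faces of the myelin membrane together, had 8.85, 8.97, 8.76 and 8.98 in the cocaine group, against 8.91, 8.81 and 8.79 in the shock group. The values overlapped, with cocaine array 6 lowest. The cocaine arrays averaged 8.89 ± 0.11 (SD, n = 4), against 8.83 ± 0.06 (SD, n = 3) for the shock arrays, a difference of 0.057 (interval -0.10 to 0.21) that ranged from 0.027 to 0.10 over the fits that left out 1 array.

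Mog, a protein of the outermost myelin layer, had 7.68, 7.68, 7.43 and 7.88 on the cocaine arrays, against 7.69, 7.72 and 7.51 on the shock arrays. Both the highest and the lowest value were cocaine arrays (7 and 6), and the difference was 0.026 (interval -0.23 to 0.28). The remaining membrane proteins differed by less than 0.1. They were the proteolipids Mal (0.041) and Pllp (0.069), the cytoskeletal protein gene Ermn (0.074), the tetraspanin gene Tspan2 (0.041), the link protein gene Hapln2 (0.0012) and the membrane protein gene Tmem125 (-0.0064). When each array was left out in turn, Pllp ran from 0.037 (without shock array 6) to 0.12 (without shock array 4, unadjusted p = 0.0271 in limma).

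The myelin membrane genes moved together from array to array, whatever the group. On cocaine array 7, 13 of 13 lay above their own mean over the 7 arrays, on cocaine array 5 it was 12 of 13, and on shock array 4 it was 10 of 13. On shock array 6 it was 0 of 13 and on cocaine array 6 it was 1 of 13. The scores of the 13 genes were -0.051, 0.12, -0.11 and 0.17 on the cocaine arrays, against 0.078, -0.027 and -0.18 on the shock arrays. Both groups thus held arrays with high and arrays with low values of these 13 genes, and their range within the cocaine group exceeded the group difference. Other myelin lists followed this only in part. On cocaine arrays 6 and 7 and shock array 6, the 6 enzyme genes scored -0.053, 0.076 and 0.02. On the same arrays, the list of 25 further genes of myelinating cells, described below, scored -0.056, 0.0076 and -0.032.

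Over all 38 members, 34 (89.5%) lay above their own mean on cocaine array 7 and 28 (73.7%) on cocaine array 5, against 13 (34.2%) on cocaine array 4 and 8 (21.1%) on cocaine array 6. On shock arrays 4, 5 and 6 it was 27, 19 and 13. For the 13733 genes above the dim level, the share above their own mean was 56.0% on cocaine array 7, 57.3% on cocaine array 5, 49.4% on cocaine array 4, 44.0% on cocaine array 6 and 50.6% on shock array 6. The median within-group SD of the 13 membrane genes was 0.168, against 0.077 for the genes above the dim level and 0.11 for all 38 members.

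**Figure D2:**
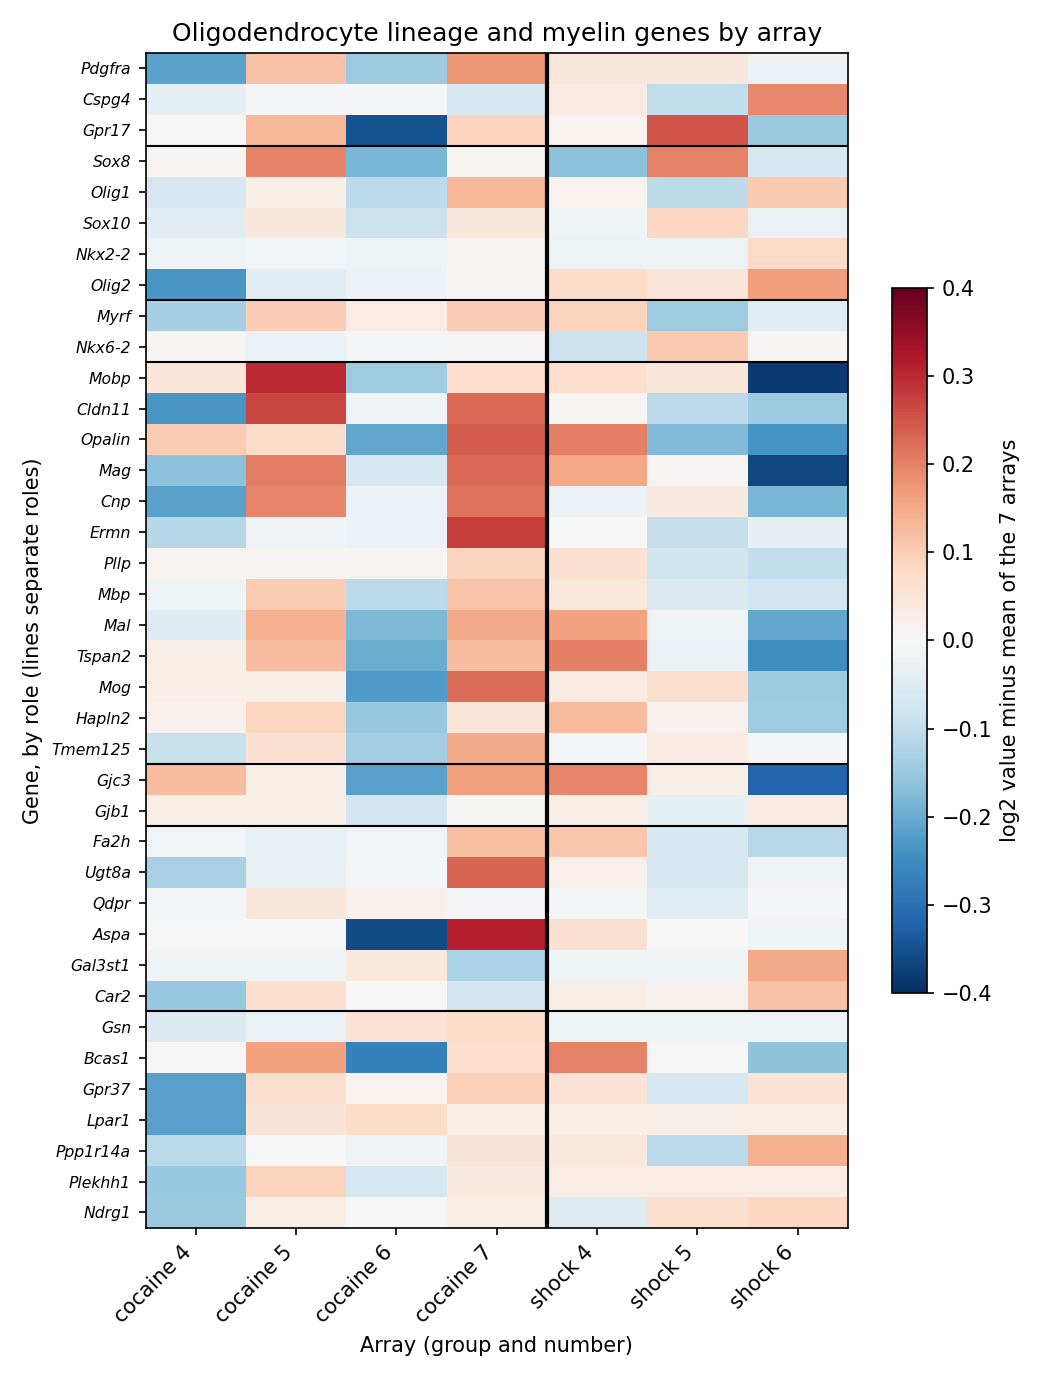
Each of the 38 measured members (rows, grouped by role with black lines between roles) on each array (columns, the 4 cocaine arrays left of the thick line and the 3 shock arrays right of it), coloured by the log2 value minus the gene's mean over the 7 arrays. The block of 13 membrane genes, from Mobp to Tmem125, is as a whole above its mean on cocaine arrays 5 and 7 and below it on cocaine array 6 and shock array 6, with scores of 0.12, 0.17, -0.11 and -0.18.

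Oligodendrocyte gap junctions couple the cells to astrocytes and join layers of the sheath. Gjc3 had 9.29, 9.19, 8.95 and 9.33 on the cocaine arrays, against 9.36, 9.19 and 8.85 on the shock arrays with cocaine array 6 and shock array 6 lowest and a difference of 0.06. Gjb1 spanned 0.11 over the 7 arrays and differed by -0.011.

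The enzymes gave no common direction, with 3 of 6 higher and a median of 0.0029 (0.038 without cocaine array 6 and -0.036 without cocaine array 7). Car2, carbonic anhydrase, which choroid plexus is also known to make, had 9.52, 9.74, 9.67 and 9.60 in the cocaine group, against 9.70, 9.69 and 9.79 in the shock group. Cocaine arrays 4, 6 and 7 lay below every shock value and cocaine array 5 did not, for a difference of -0.095 (interval -0.24 to 0.05). Gal3st1, which sulfates galactolipids to make sulfatide, had 6.06, 6.06, 6.12 and 5.95 on the cocaine arrays, against 6.06, 6.06 and 6.23 on the shock arrays. Shock array 6 was the highest, and the difference was -0.072 (-0.014 without that array).

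Ugt8a, which makes the galactolipid that Gal3st1 sulfates, differed by 0.038, and Fa2h, which hydroxylates its fatty acids, by 0.044. Aspa, which breaks down N-acetylaspartate, had 6.78, 6.78, 6.42 and 7.09 in the cocaine group, against 6.84, 6.78 and 6.76 in the shock group. Its cocaine values spanned 0.67 and its shock values 0.08, and the group means differed by -0.025. Qdpr, which regenerates tetrahydrobiopterin, differed by 0.031.

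Of the 7 members grouped as receptors, signalling and other genes, Bcas1 among them, 6 had a lower cocaine mean and the median was -0.041, with 0 of 7 at an unadjusted p under 0.05 in limma, where 1.57% of all genes reached it in the lower direction. Without cocaine array 4 the median was -0.0093, with 3 higher and 4 lower. Cocaine array 4 had the lowest score of the 7 arrays in this group (-0.13, against -0.032 to 0.053 on the others). Ndrg1, whose loss causes a demyelinating neuropathy in humans, had 8.33, 8.50, 8.48 and 8.50 on the cocaine arrays, against 8.43, 8.54 and 8.56 on the shock arrays, a difference of -0.06 (-0.018 without cocaine array 4). A dimmer probe set of Ndrg1 read 4.67 to 5.04 on the cocaine arrays and 4.88 to 5.28 on the shock arrays, under the dim level.

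Lpar1, a lysophosphatidic acid receptor, had 6.63, 6.90, 6.92 and 6.87 in the cocaine group, against 6.87, 6.87 and 6.87 in the shock group. Plekhh1 behaved alike, with 6.68, 6.92, 6.76 and 6.87 on the cocaine arrays, against 6.86 on each of the shock arrays. Such repeated values were frequent in the deposited table, where 55.9% of the probe sets and 17 of the 38 members had an identical value on at least a pair of arrays, which narrows the spread of these genes. Gpr37, an orphan receptor of maturing oligodendrocytes, differed by -0.024, the phosphatase inhibitor gene Ppp1r14a by -0.045 and the actin-severing protein gene Gsn by 0.026.

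**Figure D3:**
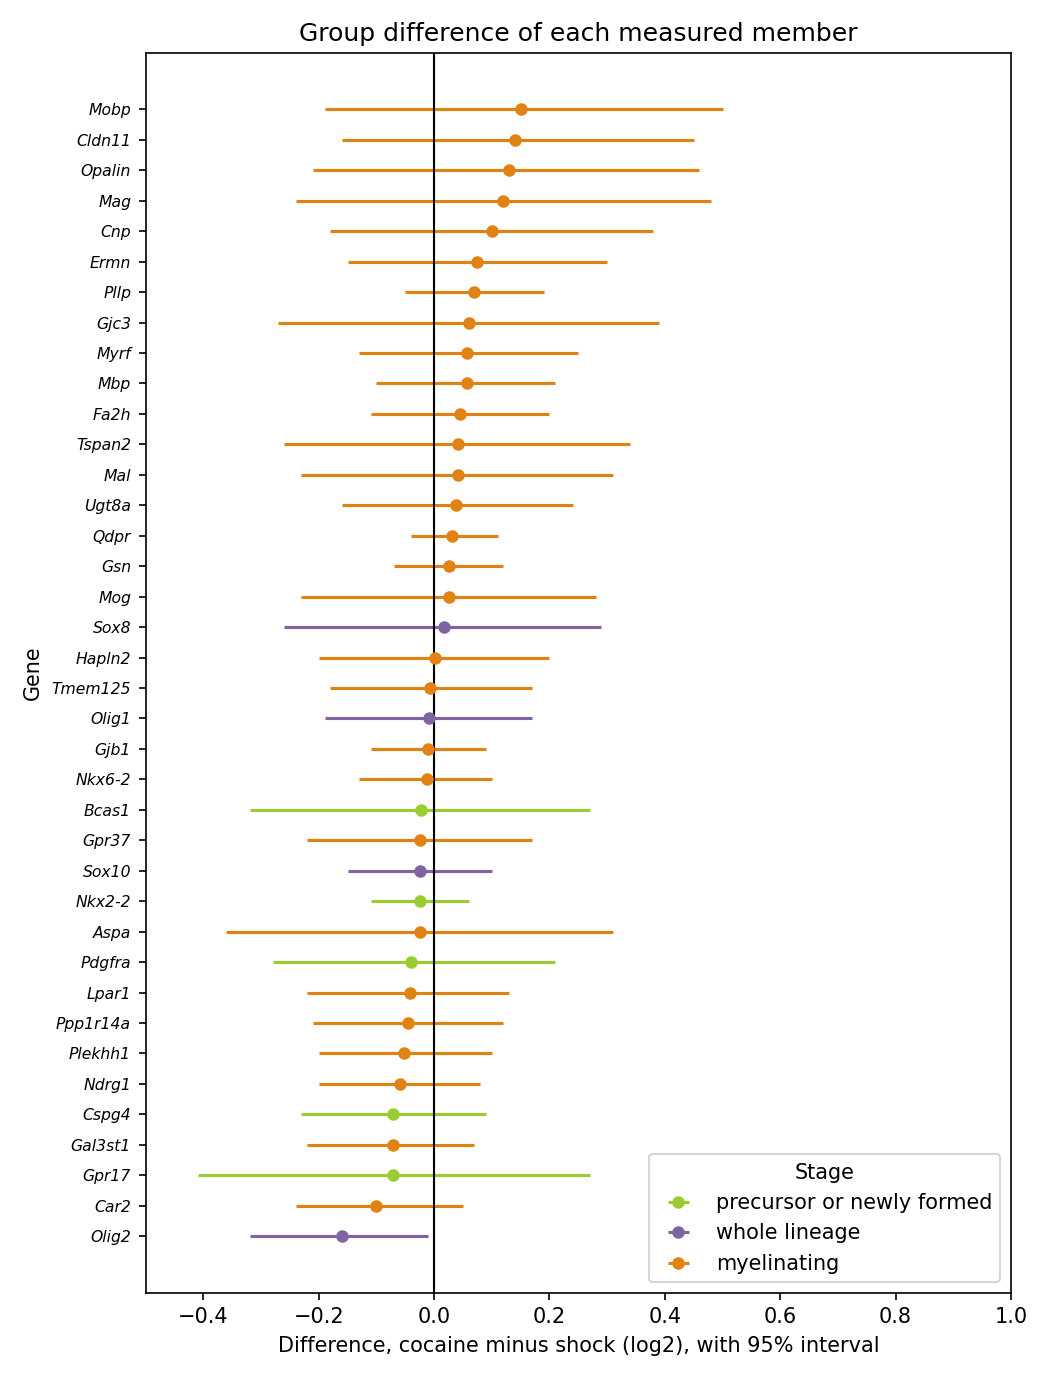
Difference between the group means (horizontal axis, cocaine minus shock, log2) of each of the 38 measured members, with its 95% interval from limma, coloured by stage. Only the interval of Olig2 (-0.32 to -0.01) leaves out 0, and the membrane proteins Mobp (0.15), Cldn11 (0.14), Opalin (0.13) and Mag (0.12) have the largest positive values.

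By stage, the 29 members of the myelinating stage had a median of 0.031 with 18 higher, the 4 transcription factors of the whole lineage (Sox10, Olig1, Olig2 and Sox8) -0.016 with 1 higher, and the 5 precursor and newly formed genes -0.04 with 0 higher. The median of the 4 lineage factors turned to 0.013 with 3 higher without cocaine array 6 and to 0.0013 with 2 higher without cocaine array 4, and it was between -0.05 and -0.026 when any other array was left out. The myelinating score minus the precursor score was -0.009, -0.01, 0.089 and 0.054 on the cocaine arrays, against -0.002, -0.06 and -0.063 on the shock arrays. Every shock array had a negative value, as did cocaine arrays 4 and 5, which overlapped with shock array 4. Leaving out cocaine array 7 turned the myelinating median to -0.0084, and leaving out shock array 6 turned it to -0.0039. The 27 members that are not well known from other brain cells had a median of 0.017, against -0.024 for the 11 that are.

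Other genes of the lineage were read in 2 further lists. Of 25 further genes of myelinating cells, 10 were higher and 15 lower in the cocaine group, with a median of -0.023 and 0 at an unadjusted p under 0.05 in limma. Ptgds, a prostaglandin synthase that meninges also make, had 10.62, 11.02, 10.81 and 10.88 on the cocaine arrays, against 11.02, 10.99 and 11.14 on the shock arrays, a difference of -0.22 (unadjusted p = 0.0521 in limma). St18, a zinc finger gene, differed by -0.23 and Apod, an apolipoprotein gene, by -0.11.

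Of 15 further genes of precursors and newly formed cells, 3 were higher and 12 lower, with a median of -0.076, and 1 reached an unadjusted p under 0.05 in limma. This was Ptprz1, a receptor phosphatase that astrocytes also make. It had 8.67, 8.69, 8.48 and 8.58 in the cocaine group, against 8.73, 8.82 and 8.74 in the shock group, so the groups did not overlap. The difference was -0.16 (unadjusted p = 0.0344, adjusted p = 0.938 in limma). In the lower direction, 1.57% of all genes reached an unadjusted p under 0.05 in limma and 1.11% had groups without overlap. The sialidase gene Neu4 differed by -0.13 and the transcription factor gene Tcf7l2 by -0.069. The median of this list was between -0.092 and -0.056 when each array was left out in turn, and -0.056 without cocaine array 6.

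Lipid supply, signals to the lineage and the node of the axon made up 4 more lists. Cholesterol synthesis genes, which feed the growing membrane, were higher in 4 of 11 with a median of -0.013 (Mvk -0.088, Sc5d -0.054, Sqle 0.054). Sphingolipid and sulfatide genes had a median of 0.0071 in 8 genes (Degs1 0.033, Galc -0.044, Sptlc1 0.038). Signals to the lineage had one of 0.03 in 10 genes, among them the axonal ligand gene Nrg1 (0.038), the receptor gene Notch1 (-0.087) and the morphogen gene Shh (0.21), which lay under the dim level. Genes of the node and paranode, where myelin meets the axon, had a median of 0.023 in 10 genes (Kcna1 0.10, Cntnap1 0.10, Nfasc -0.08). In these 4 lists 0 genes reached an unadjusted p under 0.05 in limma.

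Lists of other non-neuronal cells were set beside the members. The astrocyte median was -0.16, with Sox9 at -0.20, Aqp4 at -0.18 and Gja1 at -0.23. The endothelial median was -0.24 in 8 of 8 lower genes, with Slco1a4 at -0.48, Abcb1a at -0.26 and Flt1 at -0.30. Of these genes, 4 reached an unadjusted p under 0.05 in limma, as did 1.57% of all genes in the lower direction. None passed limma at an adjusted p under 0.05 (smallest adjusted p = 0.938). The lists were chosen with earlier results of these data known. The mural median was -0.28 in 9 of 9 lower genes, with Abcc9 at -0.40, Notch3 at -0.24 and Rgs5 at -0.45. Leaving out shock array 6 gave -0.14 with 8 of 9 lower, and leaving out shock array 5 gave -0.46. The microglial median was -0.066, with 3 genes higher and 5 lower. Those of smallest p were Cx3cr1 (-0.18), Tmem119 (-0.10) and C1qb (-0.13). Of the other 5 of these lists, only the fibroblast list had a gene at an unadjusted p under 0.05 in limma (1 of 6). Fibroblast genes had a median of -0.16 with 5 of 6 lower (Slc6a13 -0.23, Lum -0.23, Dcn -0.42). Choroid plexus genes had one of -0.17 with 6 of 7 lower (Kl -0.41, Kcne2 -0.10, Folr1 -0.17). Of these, Lum, Kcne2 and Folr1 lay under the dim level. Whether the members differ from these lists was not tested.

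The arrays also ranked differently by list. Shock array 6 had the lowest score of the 7 for the myelin membrane genes (-0.18) and the highest for the endothelial (0.2) and mural (0.58) genes, while cocaine array 7 had the highest for the membrane genes (0.17) and the lowest for the endothelial (-0.27) and mural (-0.44) genes. Not every array had this opposite order. For the membrane, endothelial and mural genes in turn, shock array 4 scored 0.078, 0.13 and 0.12, and cocaine array 4 scored -0.051, -0.074 and -0.25. Cocaine array 5 scored 0.12, -0.011 and 0.091, cocaine array 6 -0.11, -0.082 and 0.029, and shock array 5 -0.027, 0.11 and -0.14. The part of endothelial and mural cells in the membrane gene values was not tested. Neuron markers were present above the dim level in 7 of 7 excitatory and 6 of 7 inhibitory genes. The excitatory median was 0.014, with 5 higher and 2 lower (Grin2a 0.10, Slc17a7 0.081, Neurod6 0.15). The inhibitory median was -0.093, with 2 higher and 5 lower (Sst -0.19, Lhx6 -0.12, Gad2 -0.093). Immediate early genes, which follow neuronal activity, had a median of 0.5 in 10 of 10 higher genes, with Npas4 at 1.49, Btg2 at 1.01 and Fos at 1.18. Their scores were 0.49, 0.63, -0.29 and 0.33 on the cocaine arrays, against -0.78, 0.53 and -0.91 on the shock arrays. Shock array 4 had a low immediate early score beside a positive membrane gene score (0.078), and shock array 6 was low for both.

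**Figure D4:**
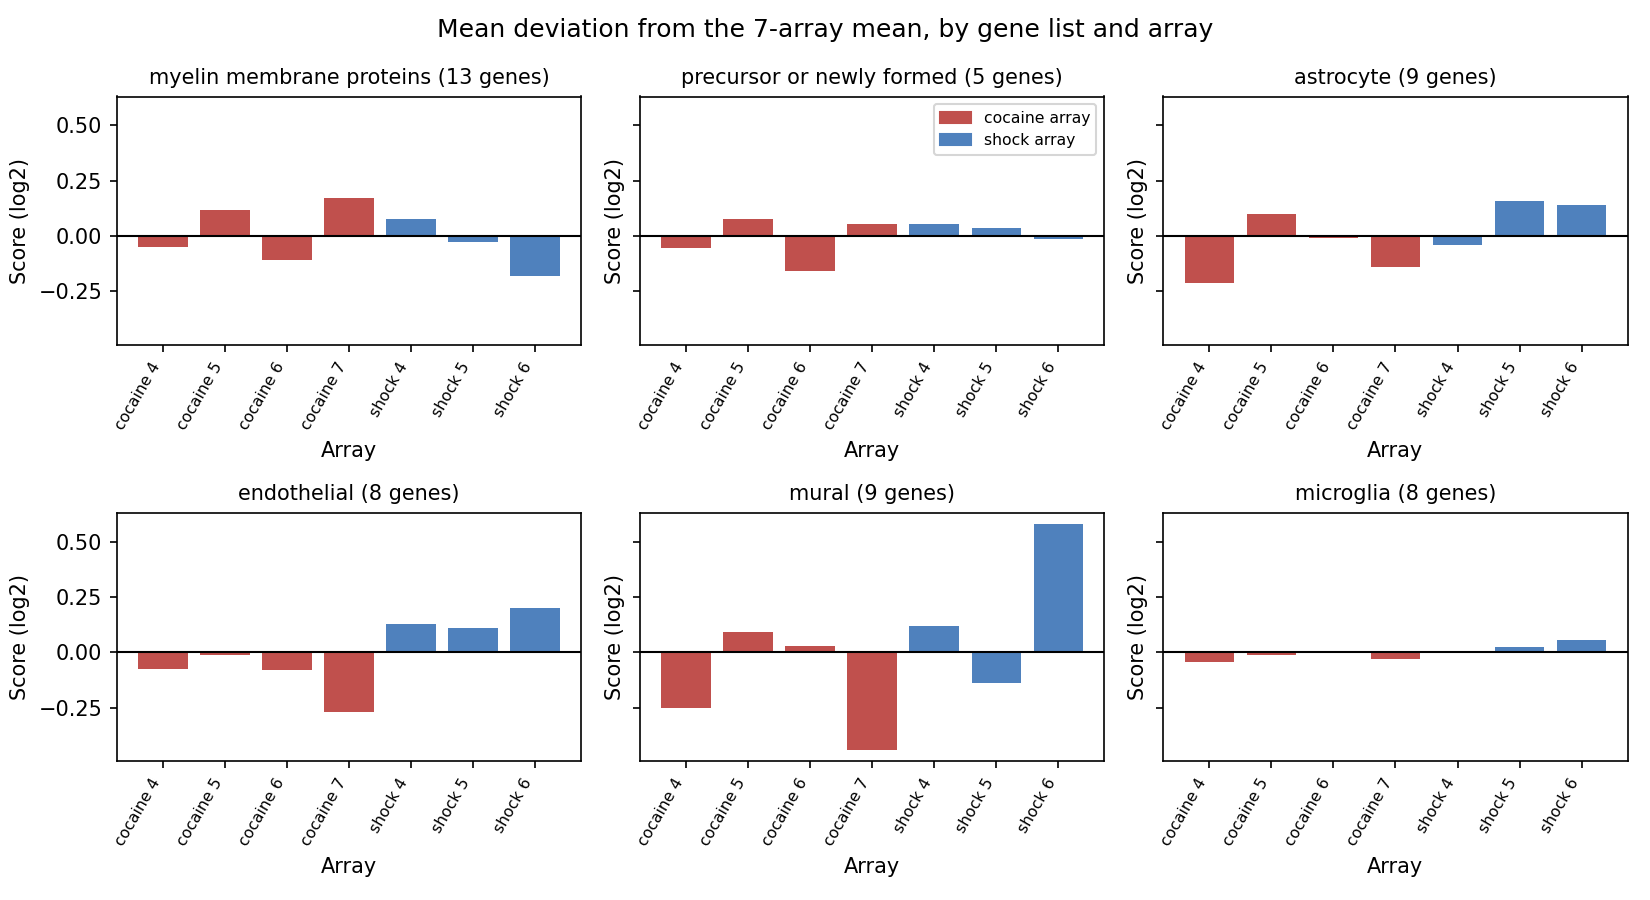
Score of 6 gene lists (vertical axis, mean log2 deviation from each gene's mean over the 7 arrays) on each array, cocaine arrays in red on the left and shock arrays in blue on the right of each panel. The membrane protein score is highest on cocaine array 7 (0.17) and lowest on shock array 6 (-0.18), whereas the mural score is lowest on cocaine array 7 (-0.44) and highest on shock array 6 (0.58). Both scores are positive on shock array 4 (0.078 and 0.12) and negative on cocaine array 4 (-0.051 and -0.25).

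**Figure D5:**
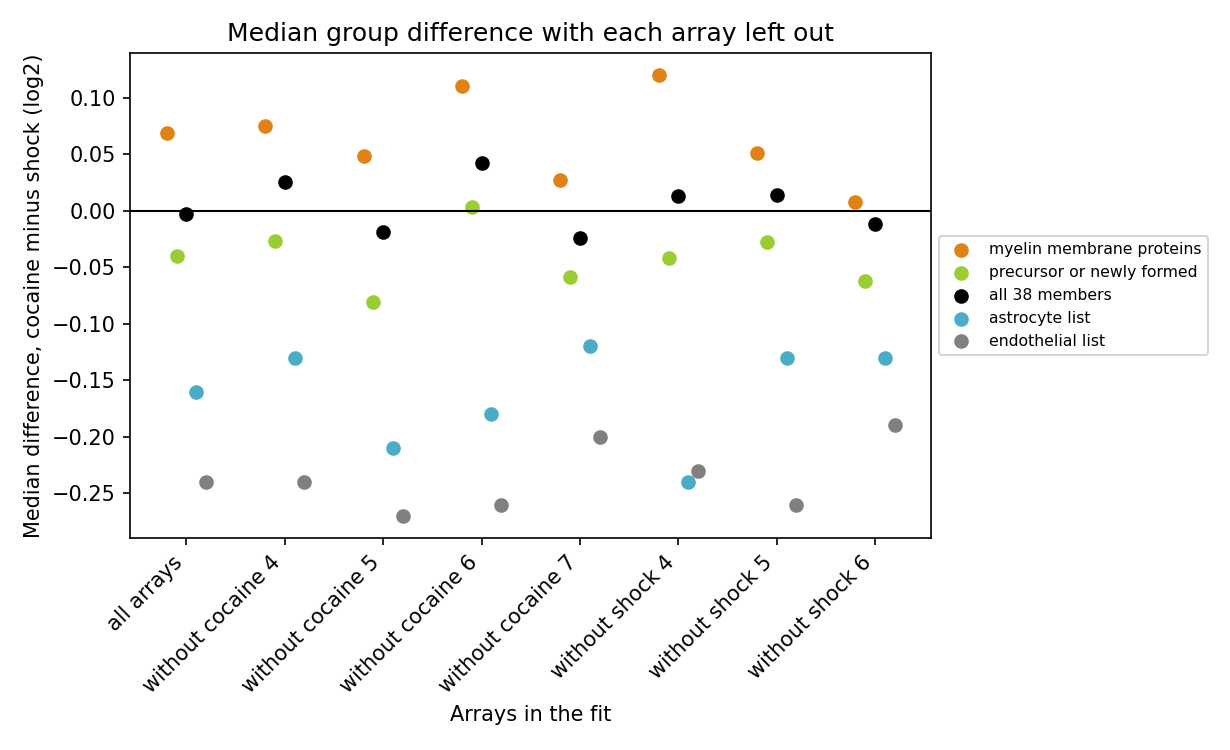
Median difference (vertical axis, cocaine minus shock, log2) of 5 gene lists with all arrays and with each array left out (horizontal axis). The 38 members stay between -0.024 and 0.042 around 0, the membrane proteins reach from 0.0074 to 0.12, and the astrocyte and endothelial lists stay below 0 throughout.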

How the data were processed

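RNA bound to GFP-tagged ribosomes of mPFC was measured on 7 one-colour Affymetrix arrays, grouped by the labels. The deposited values of 41345 probe sets were used as log2 expression, a scale read from the values (1.12 to 13.44), and Transcriptome Analysis Console is the tool in the submitters' processing notes. How the authors corrected background, normalized, summarized and filtered is not stated in those notes. Array medians were 5.44 to 5.47, so a difference is a shift against the bulk of the array. The number of arrays, not a depth, limits the precision.

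Of the probe sets, 23521 had 1 gene symbol in the platform annotation, 1814 had several, and the other 16010 remain unnamed here. Differences are cocaine minus shock, from a two-sided moderated test in limma 3.58.1 under R 4.3.3 (lmFit, then eBayes, no covariate, Benjamini-Hochberg over 22180 genes). The fit was tested on simulated data. The members and lists were chosen with earlier results of these data known. All members are named. Values on every array are given for 10 set genes, for members at an unadjusted p under 0.05, without overlap or with the 4 largest differences each way, and for further members picked after their values were seen. From each other list up to 3 genes of smallest p are named. Alternatives left out each array, changed the normalization, centring, dim filter, probe set rule, moderation and array weights, or added the array number as a block.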

Additional observations from a re-analysis of the deposited data

Results flagged for a closer look

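Among the 4 cocaine arrays, 1 array lay far from the others for 3 of 41 measures (38 members and 3 scores), where chance gives about 5% of them, here 2.05. Pllp was highest on cocaine array 7 (8.08), where the distance to the next array was 0.936 of the group's range. Fa2h was also highest on cocaine array 7 (8.39, against 8.24 to 8.26), for a share of 0.856. Ndrg1 was lowest on cocaine array 4 (8.33, against 8.48 to 8.50), for a share of 0.854. Pllp and Fa2h each had an identical value on a pair of cocaine arrays, which favours a large gap. With 3 arrays, the shock group is too small for this test.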

How the results depend on the processing

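No member passed limma at an adjusted p under 0.05 in any of the 15 alternative fits (0 in each). The number at an unadjusted p under 0.05 was 0 to 2 when 1 array was left out (2 without cocaine array 4, and 0 without cocaine array 5, cocaine array 6 or shock array 6), and 0 after quantile normalization, after median centring and without moderation. The median of the 38 members moved by less than the within-group SD of their score (0.077) under each alternative, though its sign turned, at -0.024 to 0.042 when 1 array was left out, 0.011 after quantile normalization and 0.0087 after median centring. Leaving out 1 array turned the sign of 24 members, whose differences then spanned, among the myelin membrane genes, Mog (-0.045 to 0.10), Mag (-0.027 to 0.23), Ermn (-0.0084 to 0.12), Mal (-0.051 to 0.13), Tspan2 (-0.072 to 0.15), Tmem125 (-0.058 to 0.038) and Hapln2 (-0.072 to 0.064). Among transcription factors they spanned Sox10 (-0.044 to 0.012), Olig1 (-0.063 to 0.041), Nkx6-2 (-0.061 to 0.034), Nkx2-2 (-0.042 to 0.008) and Sox8 (-0.06 to 0.12). In the other members they spanned Ugt8a (-0.033 to 0.085), Pdgfra (-0.11 to 0.026), Cspg4 (-0.14 to 0.0033), Aspa (-0.13 to 0.09), Bcas1 (-0.11 to 0.068), Fa2h (-0.0005 to 0.11), Gjb1 (-0.033 to 0.013), Gjc3 (-0.08 to 0.17), Gpr17 (-0.17 to 0.035), Gpr37 (-0.065 to 0.044), Lpar1 (-0.072 to 0.026) and Ppp1r14a (-0.11 to 0.014). Array weights turned Olig1 (0.025), Aspa (0.041), Bcas1 (0.004), Gjb1 (0.0043) and Tmem125 (0.024). Median centring turned Olig1 (0.0029), Gjb1 (0.00054) and Tmem125 (0.0048), and quantile normalization Gjb1 (0.007) and Tmem125 (0.0075). In all, 14 of 38 members kept their sign under every alternative, 9 of them higher and 5 lower, and the cause of the turns was not tested.

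With the array number as a replicate block the median was -0.024 and the count at an unadjusted p under 0.05 was 1. Since number 7 has no shock array, this fit gives the differences without cocaine array 7, and Mog (-0.045), Ermn (-0.0084), Mal (-0.0041), Ugt8a (-0.033) and Hapln2 (-0.014) turned. Same-numbered arrays correlated at 0.13, 0.06 and 0.16 in their deviations over genes, against -0.12 to 0.09 for arrays of unlike number. Shock array 5 correlated more with cocaine array 7 (0.09) than with cocaine array 5. The labels do not say that equal numbers share a source, so the main fit did not take them as a pairing. Whether same-numbered arrays share a source was not tested.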
